A study of Mus musculus with 9 samples.

Results

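The regions described here are stretches of the mouse genome near gene starts that carried more H3K27me3 in one intestinal organoid culture, WENRC, than in another, RANKL. They were taken from the authors' list of WENRC-higher regions by 2 criteria: location on chromosomes 1 to 19, and a centre at most 5000 bp from the nearest annotated transcription start site (TSS). This gave 1472 regions assigned to 1255 genes, out of 13607 WENRC-higher regions (10.8%) and 49405 regions in the WENRC-higher and RANKL-higher lists together. A further 115 regions met the distance criterion but lay on X, Y or unplaced contigs. The H3K27me3 tags themselves chose the regions, so their tags and folds are given as a description without a test.

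The cultures were mini-guts, organoids from the duodenum of mice. By their labels, RANKL holds intestinal M cells, WENRC intestinal stem cells and ENRI enterocytes; the culture names are not spelled out there, and no genotype, strain, age or dose is given. Nascent transcription was measured by GRO-seq (global run-on sequencing, in which nuclei extend the RNA of polymerases already on a gene and that RNA is sequenced) in 2 libraries of each culture, and H3K27me3 by ChIP-seq in 2 RANKL libraries and 1 WENRC library. The ENRI and WENRC GRO-seq libraries come from mouse 1 and mouse 2, and the RANKL libraries carry only a replicate number. The labels do not say that the RANKL libraries are separate cultures or animals, so p-values measure the spread between these libraries, which may be technical.

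H3K27me3 is trimethylation of lysine 27 on histone H3. It is written by the Polycomb repressive complex PRC2, is read by PRC1, and marks genes that are held silent, among them lineage regulators whose start sites lie in CpG-rich DNA. M cells are rare epithelial cells over gut lymphoid follicles that carry particles and microbes from the lumen to immune cells. They arise from crypt stem cells when the cytokine RANKL engages its receptor RANK, which acts largely through NF-kB.

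Sequences just before the start are shown for 4 genes with 1 start in the RefSeq table, where the whole stretch shown lay inside a region by its distance from the start, to let the base composition under the mark be seen. Sox8 was chosen by rule, as a gene of the lists with a region centred within 300 bp of its start. Slc6a20a, Mal and Trim47 were added after their values were seen, from genes with a region of at least 2000 bp over the start. Mycn met the same criterion but is not shown, since its region reached only 23 bases before the start. Each is the 250 bases before the start in RefSeq on GRCm38.p6, written 5′ to 3′ on the gene's strand, with every CG dinucleotide in capitals.
Sox8, chr17:25570687-25570936, minus strand: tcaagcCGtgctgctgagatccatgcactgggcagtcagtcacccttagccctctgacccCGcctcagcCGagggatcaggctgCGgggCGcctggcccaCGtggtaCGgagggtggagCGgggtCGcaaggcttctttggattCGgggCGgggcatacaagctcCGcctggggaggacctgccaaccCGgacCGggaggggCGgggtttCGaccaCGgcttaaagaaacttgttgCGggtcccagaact
Slc6a20a, chr9:123678833-123679082, minus strand: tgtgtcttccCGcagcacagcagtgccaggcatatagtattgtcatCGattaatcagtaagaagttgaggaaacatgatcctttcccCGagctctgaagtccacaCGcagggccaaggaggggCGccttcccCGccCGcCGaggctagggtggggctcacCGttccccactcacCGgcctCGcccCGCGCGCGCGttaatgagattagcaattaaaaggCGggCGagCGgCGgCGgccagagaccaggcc
Mal, chr2:127656696-127656945, minus strand: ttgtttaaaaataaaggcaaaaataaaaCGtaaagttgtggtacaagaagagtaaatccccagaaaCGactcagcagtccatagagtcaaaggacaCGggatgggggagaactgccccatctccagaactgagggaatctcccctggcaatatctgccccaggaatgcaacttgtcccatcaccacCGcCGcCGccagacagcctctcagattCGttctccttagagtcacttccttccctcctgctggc
Trim47, chr11:116110236-116110485, minus strand: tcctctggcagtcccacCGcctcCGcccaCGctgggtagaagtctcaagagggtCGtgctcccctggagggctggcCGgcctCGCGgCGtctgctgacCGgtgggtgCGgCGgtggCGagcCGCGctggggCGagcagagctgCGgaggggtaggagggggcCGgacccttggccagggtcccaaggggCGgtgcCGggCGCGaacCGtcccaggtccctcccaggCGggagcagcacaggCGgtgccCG

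These windows held 18 CG dinucleotides at Sox8, 21 at Slc6a20a, 7 at Mal and 25 at Trim47. Over 27025 RefSeq promoters of the same length the median was 6, with quartiles of 2 and 16, so Sox8, Slc6a20a and Trim47 lay above the upper quartile and Mal between the quartiles. GAGGAA, the core of Ets-family sites, was searched on both strands and occurred in the Slc6a20a window only, against 23.1% of all promoters. AAGGTCA, the site of estrogen-related receptors, was in none of the 4 and in 4.05% of all promoters, again on both strands. An NF-kB site was found in the Mal window and in 3.75% of all promoters. A match is a description of the letters and not a bound site.

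The regions were short and mostly weak in tags. Their total length was 0.938 Mb, and 1057 of them (71.8%) had the shortest length, 500 bp, while 102 reached 1000 bp and 26 reached 2000 bp, with a maximum of 5897 bp. A median region held 22.5 WENRC tags, from 14.4 to 375.4, after the authors scaled WENRC by 0.9 to the RANKL depth, and 7 tags in pooled RANKL, with at most 103. The authors' fold, the ratio of these tags, had a median of 3.15, with quartiles of 2.70 and 3.78, and 331 regions had a fold of at least 4. Only 1 region, near Gm29811, stood at the floor of 0.5 RANKL tags, and 84 had 3 RANKL tags or fewer. WENRC was 1 library and the RANKL libraries were pooled, so none of these folds has a replicate check.

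**Figure D1:**
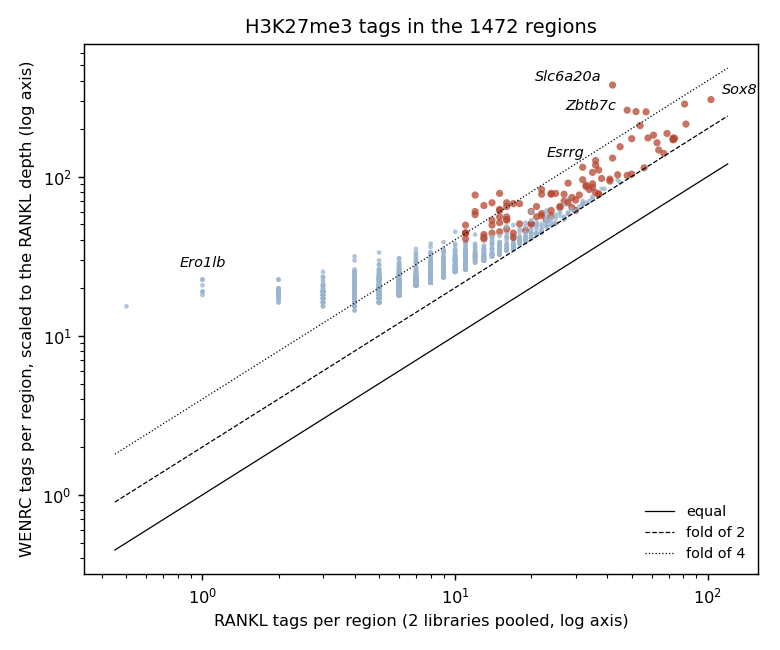
H3K27me3 tags per region in pooled RANKL (x axis, log scale) and in WENRC scaled to the RANKL depth (y axis, log scale), 1 point per region, with regions of at least 1000 bp in red. All 1472 points lie on or above the line of fold 2, the authors' minimum, and the 102 long regions fill the upper right of the cloud.

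The regions lay evenly on the 2 sides of the start. There were 740 upstream and 732 downstream by their centres, and 85 contained the start itself. The longer ones did not share this balance: 65 of the 102 regions of at least 1000 bp and 19 of the 26 regions of at least 2000 bp were centred downstream. Per the authors' annotation 636 regions (43.2%) were intronic, 543 (36.9%) intergenic and 160 (10.9%) in the promoter-TSS class, against 20.5% promoter-TSS among the 6844 RANKL-higher regions chosen by the same distance. Regions just inside the limit of 5000 bp, near Scn10a, Gm13848 and Kcna4, had folds of 2.81, 2.70 and 3.60, and those just outside, near Gm10190, A830011K09Rik and D630029K05Rik, had folds of 2.70, 3.09 and 3.83.

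**Figure D2:**
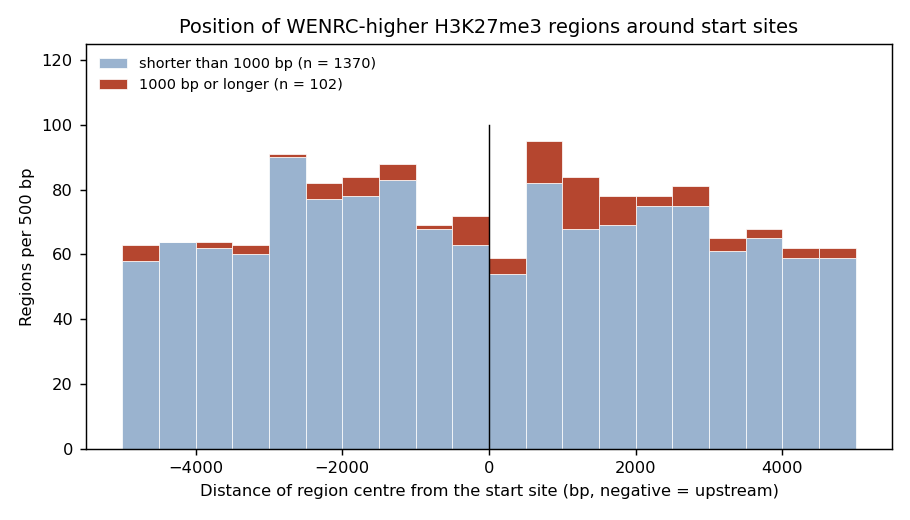
Distance of each region's centre from the nearest start site in bp (x axis, negative upstream) and number of regions per 500 bp (y axis), with regions of at least 1000 bp in red. The 740 upstream and 732 downstream regions form similar profiles, and more of the red regions fall downstream (65 of 102).

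Most genes had 1 region: 1076 of 1255, with 149 having 2 and 30 having 3 or more. Of the 1255 genes, 1086 were protein-coding, 158 were non-coding RNA genes and 11 were pseudogenes. RANKL-higher regions within 5000 bp were found at 363 of these genes, which is 28.9% of them and 8.47% of the 4285 genes with such a RANKL-higher region, so those genes had differences in both directions within 5000 bp of a start. Only 10 of the 1472 regions touched a RANKL-higher region by at least 1 bp, and 1 shared at least 50% of the shorter region.

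The 6 regions with the most tags were all at least 3426 bp long. The highest count was in a 5897 bp region in the first intron of Slc6a20a, an amino acid (proline) transporter of the gut and kidney, at chr9:123583784-123589681 on mm9, the build of the files. It held 375.4 WENRC tags and 42 RANKL tags, a fold of 8.94 with a 95% interval of 6.50 to 12.6 that covers counting error only. The next was the start of Sox8, a transcription factor of M cell differentiation, where a region of 4664 bp at chr17:25705304-25709968 held 304.3 WENRC and 103 RANKL tags (fold 2.95, interval 2.36 to 3.72). Sh3pxd2a, a scaffold protein of invadopodia, had 285.4 against 81 tags, Zbtb7c, a zinc finger factor, 261.1 against 48, Smad6, an inhibitor of BMP signalling, 255.7 against 52, and Mycn, a Myc-family factor, 254.8 against 57.

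The largest folds, in contrast, came from regions with almost no RANKL tags. The highest, 30.61 near Gm29811, is set by the floor of 0.5 tags and is not a measured ratio. Below it, the regions near Ero1lb and Olfr770 each held 22.5 WENRC tags against 1 RANKL tag, a fold of 22.51 with a counting interval of 3.68 to 924. Ero1lb, an oxidase of the endoplasmic reticulum, had GRO-seq values of 7.64 and 7.43 in RANKL against 7.32 and 7.02 in WENRC (adjusted p = 0.240). Olfr770, an olfactory receptor gene, was listed at 0 in every GRO-seq library.

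Transcription gave a readout that the choice of regions did not use. GRO-seq values are printed on the log2 scale of the authors' normalized table, and a change is a difference between 2 cultures' means on that scale, tested by limma with all 6 libraries in the fit and called at an adjusted p under 0.05 over all 16563 genes tested. In these bulk cultures more cells of a type and more transcription per cell cannot be told apart. Of the 1255 genes 1237 were in the GRO-seq table, 77 of them at 0 in every library, and 776 (62.7%, against 67.6% of all listed genes) passed the filter of at least log2 of 10 in 2 libraries. They were low among tested genes: 46.4% had a mean WENRC value up to 5.92, the lower quartile of all tested genes. Their median level was 6.76 in RANKL, 6.32 in ENRI and 6.15 in WENRC, against 7.72, 7.73 and 7.75 for all tested genes.

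Of the 776 genes tested, 158 (20.4%) were higher in RANKL than in WENRC, where 8.53% of all tested genes were, and 13 (1.68%) were lower, where 3.62% of all tested genes were. The median change was 0.20 over these genes and -0.01 over all tested genes. These counts depend on the filter, which a gene could pass through its RANKL values: 19 of the 776 passed only with the RANKL libraries, and 10 of those were among the 158. Of the 757 that passed by their ENRI and WENRC values alone, 148 (19.6%) were higher and 13 lower, against 1379 of 16460 (8.38%) higher among all genes that passed so. Without any filter, 147 of 1160 (12.7%) were higher and 11 lower, against 5.41% and 2.06% of all genes. Split at the quartiles of the WENRC level of all tested genes, the share called higher was 18.6%, 21.2%, 23.7% and 21.2% from the lowest to the highest class, against 6.81%, 6.52%, 7.70% and 13.1% of all genes in the same classes. Genes whose autosomal WENRC-higher regions all lay beyond 5000 bp had 249 of 2818 tested (8.84%) called higher and 109 (3.87%) lower, close to the shares over all genes. In the other contrasts, 145 of the 776 (18.7%) were higher and 52 (6.70%) lower in RANKL than in ENRI, against 10.4% and 10.5% of all genes. WENRC was higher than ENRI in 23 (2.96%) and lower in 74 (9.54%), against 4.85% and 9.74%.

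The calls lean on all the RANKL and WENRC libraries. With RANKL 1 or RANKL 2 left out, limma called none of the 158 and no gene higher among all those tested (0.00% in each case), though 194 of the 776 genes had an unadjusted p under 0.05 in either case. Without WENRC 1, 48 of the 776 were higher, against 1.42% of all genes, and without WENRC 2, 44, against 1.15%, and all of these were among the 158. The 158 were all called in the authors' deposited table as well. Fitted on the 4 libraries compared, 245 were higher and 45 lower (all genes 18.1% and 13.2%), and the authors' deposited adjusted p gave 238 and 34 (16.7% and 11.1%). Against ENRI, RANKL was higher in 25 and lower in 0 without RANKL 1 (0.477% and 0.193% of all genes), and higher in 18 and lower in 0 without RANKL 2 (0.290% and 0.0966%). In the authors' deposited table RANKL was higher than ENRI in 144 genes and lower in 68 (all genes 8.55% and 11.0%), and WENRC was higher than ENRI in 18 and lower in 79 (3.30% and 9.24%). On the 4 libraries compared, limma gave 115 and 28 for RANKL against ENRI (5.61% and 6.01%), and 0 and 0 for WENRC against ENRI (0.00% and 0.00%), with 162 genes at an unadjusted p under 0.05. The file headers describe the RANKL GRO-seq reads as pooled over repeated sequencing and do not say this of ENRI or WENRC, so a sequencing batch and the culture itself cannot be told apart.

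Width of the region went with the share of genes called. Among genes whose longest region was 500 bp, 80 of 523 tested (15.3%) were higher in RANKL than in WENRC and 12 were lower. The share was 20% (35 of 175) between 500 and 1000 bp, 52.8% (28 of 53) from 1000 to under 2000 bp and 60% (15 of 25) for 2000 bp or more. Only 1 gene with a region longer than 500 bp was called lower, and none with a region of at least 1000 bp. The median change was 0.06, 0.29, 1.28 and 1.72 in the 4 classes. Long regions also hold more tags; the part of tag number in this order was not tested.

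**Figure D3:**
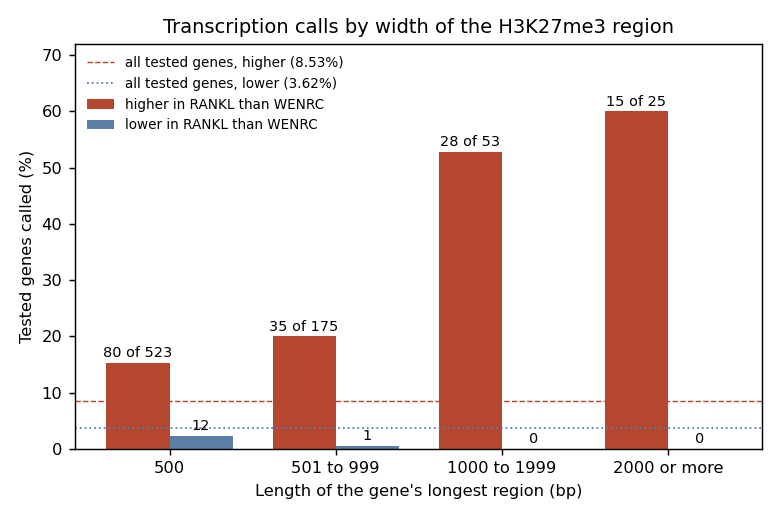
Percent of tested genes called higher (red) or lower (blue) in RANKL than in WENRC by the length in bp of the gene's longest WENRC-higher region, with dashed and dotted lines for all tested genes (8.53% and 3.62%). The red bars stand at 15.3%, 20%, 52.8% and 60%, and the blue bars are at 0 from 1000 bp on.

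**Figure D4:**
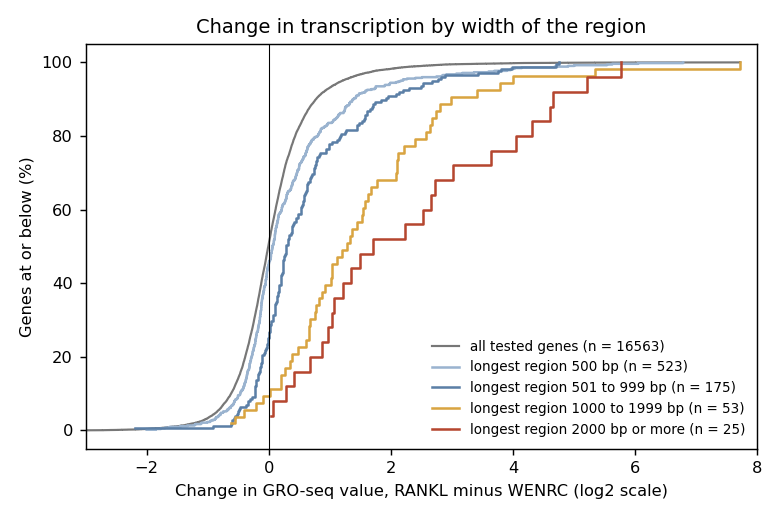
Cumulative percent of genes (y axis) by the RANKL minus WENRC change of the GRO-seq value on the log2 scale (x axis), for all 16563 tested genes and for genes of the 4 width classes. The curve of the 500 bp class runs close to that of all genes, with a median of 0.06 against -0.01, and the curves of wider regions lie to the right, with medians of 1.28 and 1.72.

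Position and number of regions showed smaller differences of the same kind. Genes with a region centred within 1000 bp of the start had 52 of 174 (29.9%) called higher and 0 lower in RANKL than in WENRC by limma. Where all regions lay farther out and downstream, 57 of 246 (23.2%) were higher and 5 lower, and where all lay farther out and upstream, 43 of 321 (13.4%) and 8. Of genes with 1, 2 and at least 3 regions, 18.3%, 28.6% and 38.5% were higher. Genes that also had a RANKL-higher region near the start had 27 of 231 (11.7%) higher and 8 lower, and those without one 131 of 545 (24.0%) and 5.

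A larger share of listed M cell genes than of all listed genes lay near regions. The list was chosen with earlier results of these data known, so this share is a description and not a test. Of 29 listed M cell genes 9 had a WENRC-higher region near the start (31.0%, against 5.05% of all listed genes), and the 8 that passed the filter were each called higher in RANKL than in WENRC and than in ENRI. Of these, Sox8, Gp2 and Ncf4 passed only with the RANKL libraries, so their calls are not independent of the filter, and the other 5 passed by their ENRI and WENRC values alone. Over the whole list, 19 of 27 tested genes were higher in RANKL than in WENRC and none was lower. The ninth gene, Umod, was below the filter, with values of 2.94 and 3.15 in RANKL against 2.49 and 2.48 in WENRC. All 8 calls against WENRC were lost without RANKL 1 or RANKL 2, 5 were kept without WENRC 1 and 6 without WENRC 2. Against ENRI, 6 of the 8 were kept without RANKL 1 and 4 without RANKL 2.

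The transcription factors among them carried the widest marks. Sox8 had values of 6.94 and 6.97 in RANKL, 2.57 and 2.83 in ENRI and 2.56 and 3.23 in WENRC. The 2 RANKL libraries stood far above the other 4, which overlapped, and the change from WENRC was 4.06 ± 0.26 (SE; adjusted p = 0.00175). Its printed start, with 18 CG, lay within the 4664 bp region, and a further region of 1482 bp with 73.8 against 29 tags lay at the end of the gene.

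Esrrg, an orphan nuclear receptor needed for M cell maturation, had 5 regions, more than any other gene here, near several of its annotated starts. The widest, chr1:189432344-189435399, spans 3055 bp and held 126.0 WENRC against 36 RANKL tags. GRO-seq values were 14.02 and 14.12 in RANKL, 6.80 and 8.82 in ENRI, and 9.48 and 10.05 in WENRC. RANKL was clear of both other cultures, and both ENRI values lay under the WENRC values. The change was 4.31 ± 0.62 from WENRC (adjusted p = 0.0121) and 6.26 ± 0.62 from ENRI (adjusted p = 0.00347); the gene overlaps another listed gene, so its reads may not all be its own. Atoh8, a helix-loop-helix factor known to limit M cell numbers, had 3 regions of 500 to 1218 bp with 37.8 to 55.8 WENRC tags. It rose least of the 8, from 5.40 and 5.62 in WENRC to 7.04 and 6.71 in RANKL, by 1.37 ± 0.26 (adjusted p = 0.0254), with ENRI lowest at 4.38 and 4.92.

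The other M cell genes had no region over 1186 bp. Gp2, a surface receptor that binds bacterial fimbriae, went from 2.66 and 3.29 in WENRC to 8.56 and 8.65 in RANKL, a rise of 5.62 ± 0.42 (adjusted p = 0.00209). Its region of 500 bp, 3479 bp upstream, is annotated to the end of the neighbouring Umod, and the 2 genes lie in a row. Ncf4, a subunit of the phagocyte NADPH oxidase, went from 2.60 and 3.47 to 8.39 and 8.36 (5.34 ± 0.32, adjusted p = 0.00144) and had 2 regions on the 2 sides of its start. In both genes the RANKL values lay above all others and the ENRI and WENRC ranges overlapped.

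Tnfaip2, a protein of membrane protrusions, had values of 9.88 and 9.96 in RANKL and 5.46 and 5.02 in WENRC, a rise of 4.68 ± 0.21 (adjusted p = 0.00123). Icam1, an adhesion molecule for leukocytes, rose by 3.60 ± 0.39 (adjusted p = 0.00601) from 5.14 and 5.96 to 9.21 and 9.09. Ccl9, a chemokine that draws dendritic cells, rose by 3.43 ± 0.26 (adjusted p = 0.00218) from 4.62 in both WENRC libraries to 8.08 and 8.02. Each of these 3 genes had 1 region of 500 to 705 bp inside the gene, with at most 25.2 WENRC tags.

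**Figure D5:**
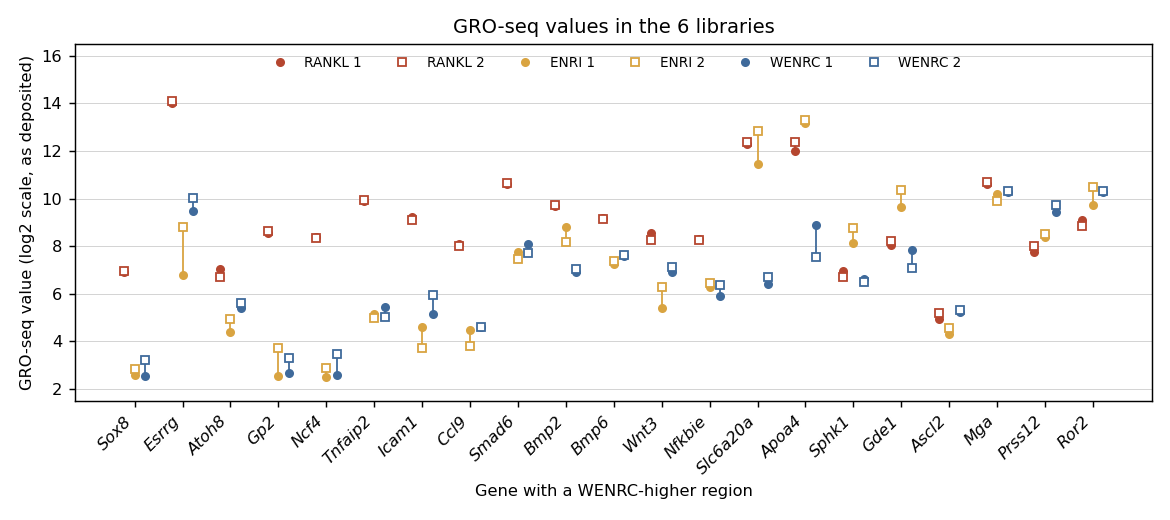
GRO-seq value on the log2 scale as deposited (y axis) of 21 genes with a WENRC-higher region (x axis) in each of the 6 libraries, with the libraries of a culture joined by a line. For Sox8 to Ccl9 the RANKL points stand above all others, for Slc6a20a and Apoa4 RANKL and ENRI both stand above WENRC, and for Prss12 and Ror2 RANKL lies under WENRC.

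Each list of markers of other cell types held 1 gene with a region or none. The share over all listed genes was 5.05%, and lists of 9 to 20 genes are too short to tell their shares from it. Of 20 listed enterocyte genes 1 was included (Apoa4), of 19 crypt stem cell genes 1 (Ascl2), of 10 goblet genes 1 (Gfi1), of 15 enteroendocrine genes 1 (Gcg), of 10 leukocyte genes 1 (Lyz2), and none of the 11 Paneth, 10 tuft, 10 fibroblast and muscle, or 9 endothelium and nerve genes. The mean value of the listed leukocyte, fibroblast and endothelial genes lay between 3.51 and 4.20 in every library. The enterocyte list averaged 10.01 and 10.12 in RANKL, 11.38 and 12.10 in ENRI and 9.25 and 8.47 in WENRC, so RANKL lay between the other cultures. The goblet list averaged 8.82 and 8.66 in RANKL against 7.54 and 7.19 in WENRC, the Paneth list 7.74 in both RANKL libraries against 6.24 and 6.62, and the tuft list 5.03 and 5.09 against 4.21 and 4.60, each higher in RANKL. The crypt stem cell list averaged 10.34 and 10.43 in RANKL, 9.12 and 8.58 in ENRI and 10.42 and 10.57 in WENRC. Its RANKL and WENRC values thus overlapped, and of 19 tested genes 2 were higher and 2 lower in RANKL than in WENRC. The part of these lists in the calls was not tested. Ascl2, a transcription factor of crypt stem cells, had a 1488 bp region with 77.4 against 37 tags, and its values of 4.93 and 5.19 in RANKL and 5.24 and 5.30 in WENRC gave no call (-0.21 ± 0.20, adjusted p = 0.541).

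Against ENRI, the 158 genes higher in RANKL than in WENRC fell into 2 main patterns. In 109, RANKL was called above both other cultures and those were not called apart. In 29, WENRC was called lower than both RANKL and ENRI, which were not called apart from each other. Both RANKL libraries exceeded both ENRI libraries in 129 of the 158, and 116 were called higher than ENRI, while 3 were called lower. The WENRC against ENRI calls of the second pattern rest on the fit of all 6 libraries, since limma made none without RANKL 1, RANKL 2 or WENRC 2, where 154 to 163 of the 776 genes had an unadjusted p under 0.05.

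Slc6a20a belongs to the second pattern. Its values were 12.30 and 12.37 in RANKL, 11.44 and 12.84 in ENRI and 6.42 and 6.73 in WENRC. RANKL lay inside the ENRI range, and WENRC was far under both. The change from WENRC was 5.76 ± 0.43 (adjusted p = 0.00217), and that from ENRI was 0.20 ± 0.43 (adjusted p = 0.777) and turned to -0.51 without ENRI 1. A near paralog, Slc6a20b, had 3 regions and also rose from WENRC, by 1.53 ± 0.33 (adjusted p = 0.0360); reads may be split between the 2 genes. Apoa4, an enterocyte apolipoprotein, was also lowest in WENRC, but both of its RANKL values lay under the ENRI values. It had 11.99 and 12.40 in RANKL, 13.16 and 13.31 in ENRI and 8.91 and 7.54 in WENRC (3.97 ± 0.43 from WENRC, adjusted p = 0.00606). Its difference from ENRI was -1.05 (adjusted p = 0.139 by limma) and was called lower on the 4 libraries compared and in the authors' deposited table.

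The 26 regions of at least 2000 bp gave 25 tested genes, of which 15 were higher in RANKL than in WENRC; without RANKL 1 or RANKL 2 none of these was called, without WENRC 1 9 were and without WENRC 2 8 were. Trabd2b, a protease that cleaves Wnt proteins, rose by 5.21 ± 0.49 (adjusted p = 0.00394), from 4.36 and 5.67 to 10.13 and 10.33. St3gal1, a sialyltransferase, rose by 2.66 ± 0.19 (adjusted p = 0.00181), from 7.41 and 7.44 to 10.10 and 10.06. In both genes the RANKL values lay above all 4 others.

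The other 10 of the 25 were not called by limma. Mal, a lipid raft protein of apical transport whose start is printed above, had 7.52 and 7.42 in RANKL, 6.85 and 3.94 in ENRI and 4.11 and 4.81 in WENRC (3.01 ± 0.88, adjusted p = 0.0814). ENRI 1 lay near the RANKL values and ENRI 2 under both WENRC values. Mycn had 5.34 and 5.48 in RANKL against 4.12 and 4.26 in WENRC (1.21 ± 0.36, adjusted p = 0.0822 by limma). The authors' deposited table called Mycn higher in RANKL (log2 fold 3.11, adjusted p = 0.00022). Sphk1, which makes sphingosine 1-phosphate, and Gde1, a phosphodiesterase, had lower values in RANKL and WENRC than in ENRI. Sphk1 had 8.14 and 8.76 in ENRI, 6.97 and 6.72 in RANKL and 6.63 and 6.50 in WENRC.

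Some Wnt and BMP pathway genes near regions rose, and others were not called. Regions lay near 11 of 68 listed genes (16.2%, against 5.05% of all listed genes). Of these 9 were tested, and 4 rose in RANKL over WENRC (Bmp2, Bmp6, Smad6 and Wnt3) with none lower. Dkk2, Nkd2, Rspo3, Rspo4 and Wnt7a were not called by limma, though the authors' deposited table called Nkd2 higher (adjusted p = 0.0462). The share called higher was 20.4% over all 776 tested genes near regions. Over the whole list 8 of 48 tested were higher and 2 lower, with a median change of 0.03. The ligand Bmp2 had 9.69 and 9.74 in RANKL, 8.82 and 8.16 in ENRI and 6.90 and 7.04 in WENRC, with no overlap between the 3 cultures, and rose by 2.74 ± 0.23 (adjusted p = 0.00316). The ligand Bmp6 rose by 1.57 ± 0.14 (adjusted p = 0.00355) and the ligand Wnt3, a niche signal for stem cells, by 1.38 ± 0.31 (adjusted p = 0.0425). Smad6, which blocks BMP receptor signalling, had 10.62 and 10.65 in RANKL against 8.10 and 7.72 in WENRC and 7.77 and 7.48 in ENRI (2.72 ± 0.19, adjusted p = 0.00181).

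In the NF-kB and TNF list, 4 of 34 genes had a region (11.8%, against 5.05% of all listed genes). Of these, 3 rose over WENRC with none lower. Over the whole list 16 of 31 tested were higher and none lower. Nfkbie, an inhibitor that holds NF-kB in the cytoplasm, rose by 2.13 ± 0.22 (adjusted p = 0.00513), from 5.91 and 6.39 to 8.30 and 8.25. Tnfsf15, a TNF-family ligand, rose by 1.59 ± 0.20 (adjusted p = 0.00858), and Traf1, a TNF receptor adaptor, by 1.06 ± 0.19 (adjusted p = 0.0211). Traf1 passed the filter only with the RANKL libraries, so its call is not independent of the filter. Tnfrsf9, a costimulatory receptor, had 2 regions but low values of 4.51 and 4.42 in RANKL against 4.20 and 4.44 in WENRC, which overlapped (adjusted p = 0.706).

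Few developmental regulators that are textbook Polycomb targets could be tested. Regions lay near 9 of 113 listed homeobox genes (8.0%) and 11 of 91 other developmental transcription factors (12.1%), against 5.05% of all listed genes. Only 2 and 5 of these passed the filter, and none of the 7 was called between RANKL and WENRC by limma. Pax3 stood at 4.01 and 3.80 in RANKL against 3.65 and 4.05 in WENRC, which overlap. Id2 stood at 8.95 in both RANKL libraries against 7.69 and 8.13 in WENRC (1.04 ± 0.35, adjusted p = 0.111 by limma). Of the 7, the authors' deposited table called only Id2 between these cultures, as higher in RANKL (log2 fold 1.26, adjusted p = 2.69e-05). None of 31 listed PRC2 and PRC1 genes had a region. Of the channel genes 9 of 61 (14.8%) had a region and 1 of 5 tested rose, Kcnj15. Over the whole list 5 of 48 were higher and 1 lower. Of cadherins, integrins and matrix genes 9 of 63 (14.3%) had one and 2 of 9 tested rose by limma, the integrins Itga5 and Itgb8. Over that whole list 4 of 57 were higher and 1 lower. In both lists the share of genes near regions that rose is close to the 20.4% over all 776.

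Most of the largest rises were of genes outside the M cell list. Pglyrp2, an amidase that cleaves bacterial peptidoglycan, had 10.64 and 10.76 in RANKL, 2.62 and 4.1 in ENRI and 2.60 and 3.35 in WENRC, the largest rise of the 158 (7.72 ± 0.51, adjusted p = 0.00175). Its region of 1244 bp upstream of the start held 49.5 WENRC against 11 RANKL tags. Kcnj15, an inward rectifier potassium channel, rose by 6.79 ± 0.33 (adjusted p = 0.00123) and Adgrd1, an adhesion G protein-coupled receptor, by 6.05 ± 0.25 (adjusted p = 0.00123), each with 1 region of 500 bp. The size of such rises depends on how low values are scaled: the authors' deposited table gives a log2 fold of 14.01 for Pglyrp2.

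Other large rises were those of Erv3 (5.54), Gbp8, an interferon-induced GTPase (4.90), Itgb8, an integrin subunit that activates TGF-beta (4.75), and Calcb, a calcitonin gene-related peptide (4.71, against 9.82 in the authors' deposited table). In each of them the RANKL libraries lay above all 4 others. Erv3 and Calcb passed the filter only with the RANKL libraries, so their calls are not independent of the filter. A stricter filter asked for at least log2 of 32 in 4 libraries. Among the 12 largest rises of genes that overlap no other gene, 6 passed it, and each was called. Pglyrp2, Kcnj15, Gp2, Ncf4, Erv3 and Calcb did not pass it and were not tested there. Of the 12 largest rises of genes that overlap no other gene, 11 were called without WENRC 1 and 11 without WENRC 2, and none without RANKL 1 or RANKL 2.

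The 13 genes that fell in RANKL did so by less. Prss12, a serine protease, had 7.75 and 7.99 in RANKL, 8.40 and 8.50 in ENRI and 9.42 and 9.72 in WENRC, a change of -1.70 ± 0.17 (adjusted p = 0.00512), although WENRC carried more H3K27me3 near its start (32.4 against 14 tags). Mboat2, an acyltransferase of membrane lipids, fell by 1.62 ± 0.19 (adjusted p = 0.00727), with both RANKL values under all others. Ror2, a Wnt5a receptor, fell by 1.33 ± 0.26 (adjusted p = 0.0260), and Ccdc88a, Nars and Ccdc71l by 1.10, 0.96 and 0.86. The regions of Prss12, Mboat2 and Ror2 were each 500 bp long. Several regions at a gene did not always go with a call. Dab2ip, a Ras GTPase-activating protein with 4 regions, had 11.01 and 11.10 in RANKL against 10.92 and 10.78 in WENRC (0.21 ± 0.15, adjusted p = 0.404). Of the other genes with 4 regions, Epb41l1, a cytoskeletal protein, rose by 1.55 ± 0.21 (adjusted p = 0.0104), and Gm5523 was under the filter. Edn2, Gadl1 and Fam234b were not called by limma (0.97, 0.77 and 1.02). The authors' deposited table called each of them higher in RANKL than in WENRC (adjusted p = 0.0281, 0.00386 and 3.91e-07), and did not call Dab2ip (0.268). Mga, a Myc network repressor, and Nfe2l3, a basic leucine zipper factor, both with at least 3 regions, had differences of 0.35 and -0.31. Neither was called by limma, and the authors' deposited table called Mga higher (adjusted p = 0.0337) but not Nfe2l3 (adjusted p = 0.0943).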

How the data were processed

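GRO-seq gene values and H3K27me3 regions were taken from the series' own tables. The authors summed GRO-seq reads over RefSeq genes of mm9 with HOMER, per the file headers, and deposited normalized values on a log2 scale, with their own log2 fold change and p-value per pair of cultures. The submitters' processing notes name Bowtie2 2.3.4.1, HOMER and DESeq2. The log transform is not named, low values are drawn together, strand handling is not stated and GRO-seq depth is unknown. The sign of the deposited fold was turned to first-named minus second-named. Regions were called by the authors with one culture against the other; deposited RANKL tags are counts (32.7 M tags, 2 libraries pooled), WENRC tags a scaled signal (36.3 M tags, 1 library), and the deposited fold is their ratio. Intervals of folds are exact, at 95%.

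limma 3.58.1 (R 4.3.3) was fitted to 3 group means over 6 libraries, with a variance trend, two-sided tests and Benjamini-Hochberg adjustment, and was tested on simulated data. Named genes are the 12 largest rises and 6 largest falls, genes with most regions, the regions with most tags or largest folds, list members, and genes at the distance limit; Slc6a20b, St3gal1, Mal, Trim47, Sphk1, Gde1, Atoh8 and Umod were added after values were seen. The regions and gene lists were chosen with earlier results of these data known. WENRC and ENRI share mouse numbers (r = 0.41 between same-numbered deviations over genes); RANKL numbers only name replicates (r = -0.20 and -0.32). Promoters come from RefSeq (GRCm38.p6); 939 of 1255 genes matched (74.8%), under the 80% needed, so no promoter statistic over all genes is given. Tnfrsf9, also given by the rule for sequences, has 2 starts and is not shown. Region sequences on mm9 were not used here. Alternatives were other normalizations, filters, fits, replicate blocks and left-out libraries.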

Additional observations from a re-analysis of the deposited data

How the results depend on the processing

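Leaving out 1 library gave 0 to 247 genes higher and 0 to 44 lower in RANKL than in WENRC, 18 to 212 and 0 to 129 in RANKL than in ENRI, and 0 to 111 and 0 to 163 in WENRC than in ENRI. With only the 4 libraries compared, RANKL against WENRC gave 245 and 45, RANKL against ENRI 28 lower, and WENRC against ENRI 0 and 0 by limma, where 162 genes had an unadjusted p under 0.05 and the authors' deposited table called 18 and 79. The authors' table gave 238 and 34 for RANKL against WENRC. For the pairing, a replicate block in all 6 libraries gave 144 higher and 8 lower there, with 1057 and 408 over all 16563 tested genes. The block by mouse in the 4 WENRC and ENRI libraries gave 0 and 10 (214 at an unadjusted p under 0.05). Over all tested genes that block gave 19 and 105. Same-numbered RANKL libraries share only a number. With upper quartile recentring the median change over tested genes went from -0.01 to -0.12 (RANKL minus WENRC) and to 0.10 (WENRC minus ENRI). Recentring gave 137 and 17 in the former, with 1245 and 1091 over all tested genes. In the latter it gave 41 and 59, against 23 and 74 in the main fit. Over all tested genes these were 1646 and 1397, against 803 and 1613. Quantile normalization gave 40 and 68 in the latter, with 1633 and 1524 over all tested genes. Regions of fold at least 4 gave 198 tested genes, with 61 (30.8%) higher and 4 (2.02%) lower for RANKL against WENRC. RANKL against ENRI gave 50 (25.3%) and 12 (6.06%), and WENRC against ENRI 5 (2.53%) and 23 (11.6%). Regions within 1000 bp gave 174 tested genes, with 52 (29.9%) and 0, 53 (30.5%) and 10 (5.75%), and 5 (2.87%) and 19 (10.9%) in the same order. Over all tested genes the shares were 8.53% and 3.62%, 10.4% and 10.5%, and 4.85% and 9.74%. Without overlapping genes 624 were tested. Of them 7 were lower in RANKL than in WENRC, against 435 of 12617 over all genes without overlap. WENRC was higher than ENRI in 15, against 602 of 12617. For Slc6a20a, RANKL minus ENRI ran from -0.51 without ENRI 1 to 0.90 without ENRI 2. The cause was not tested for the other changes. The H3K27me3 folds have no replicate check, as RANKL was pooled and WENRC is 1 library, and GRO-seq depth is unknown.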

Other observations

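Solute carrier genes, a family chosen after the values were seen, had regions near 29 of 376 listed genes (7.71%, against 5.05% of all listed genes), and 5 of the 26 tested were higher in RANKL than in WENRC with none lower (limma), a share close to the 20.4% over all 776 tested genes near regions and above the 8.53% of all tested genes. Besides Slc6a20a and Slc6a20b these were Slc1a3, a glutamate transporter, Slc28a1, a nucleoside transporter, and Slc30a2, a zinc transporter. Slc28a1 had 9.75 and 9.81 in RANKL, 9.44 and 10.7 in ENRI and 5.46 and 5.82 in WENRC, a rise of 4.15 ± 0.41 from WENRC (adjusted p = 0.00453), with RANKL inside the ENRI range. Slc1a3 had 9.61 and 9.74 in RANKL, 3.76 and 5.32 in ENRI and 4.99 and 6.55 in WENRC, a rise of 3.90 ± 0.66 (adjusted p = 0.0179), with RANKL above all 4 others.

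Large families of which few genes passed the GRO-seq filter were also present among the genes near regions. Olfactory receptor genes made up 37 of the 1237 genes in the GRO-seq table (3.29% of 1125 listed), vomeronasal receptor genes 8 (2.37% of 337) and microRNA genes 30 (2.59% of 1160), each a smaller share than the 5.05% of all listed genes. Of these, 0, 1 and 3 passed the filter, and none was called between RANKL and WENRC.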
